A study of Rattus norvegicus with 2 samples.

Results

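The digestive enzymes described here are the products of 10 genes that pancreatic acinar cells make in large amounts: the trypsinogens Prss1 and Prss3, the chymotrypsinogen Ctrb1, the elastase Cela2a, the carboxypeptidases Cpa1 and Cpb1, the amylase Amy2, the lipases Pnlip and Cel, and the ribonuclease Rnase1. They were followed in HIP rats, transgenic for human IAPP (islet amyloid polypeptide), and in nondiabetic wild-type rats. All gene spots carrying one of these symbols, or an older symbol such as Ela2 for Cela2a, were taken from the scanner files, which gave 14 spots for the 10 genes, out of 35561 gene names on the array. One of the 14, matched through the letters Ela2, is described on the array as neutrophil elastase (Elane), an enzyme of white blood cells, so 13 spots were counted. A spot named Rnase1 on the array that RefSeq now assigns to the related gene Rnase1l1 was kept among them. There were 8 genes with 1 spot each and 2 genes, Amy2 and Rnase1, with several.

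Each of 2 two-colour arrays held 1 HIP extract, labelled with Cy5, and 1 wild-type extract, labelled with Cy3. The extracts are called HIP 1, HIP 2, wild type 1 and wild type 2 here, after the array that carried them. The labels give no tissue, age or sex, and do not say whether the extracts of a genotype came from separate animals, so the tests below measure only the spread between these samples. The title of the series names islets and pancreatic ducts. HIP rats are known as a line in which the rat insulin II promoter drives human IAPP in beta cells, and that is background, not part of the labels. With no dye swap, an effect of genotype and one of dye cannot be told apart.

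Acinar cells store most of these enzymes in zymogen granules as inactive precursors and release them into the ducts when a meal arrives. In the gut, enteropeptidase cleaves trypsinogen to trypsin, and trypsin then activates the other protease precursors. Acinar enzyme genes are driven by PTF1, a complex of the factor PTF1A, a common bHLH partner and RBPJL or RBPJ, which reads an E-box next to an RBPJ-type site. RNA of acinar enzymes is also a common companion of islets, because exocrine tissue adheres to islets when they are isolated or cut out. In material of this kind, fewer cells of a type and less RNA per cell cannot be told apart.

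Promoter sequences are shown for 4 of the genes to go with the values below: Prss1, Ctrb1 and Pnlip, which had a ratio beyond 2-fold on 1 array, and Cel, which stayed within 2-fold on both. Each line gives the 250 bases before the annotated start, 5′ to 3′ in the direction of the gene, from RefSeq on the rat build GRCr8. Capitals mark the E-box CACCTG and the RBPJ-type site TTTCCC, both searched on both strands (CAGGTG and GGGAAA on the other), and TATAAA, searched on the strand of the gene. The Prss1 window is chr4:71330999-71331248, plus strand. The Ctrb1 window is chr19:56566979-56567228, minus strand. The Pnlip window is chr1:267784360-267784609, plus strand. The Cel window is chr3:32289020-32289269, minus strand.
Prss1: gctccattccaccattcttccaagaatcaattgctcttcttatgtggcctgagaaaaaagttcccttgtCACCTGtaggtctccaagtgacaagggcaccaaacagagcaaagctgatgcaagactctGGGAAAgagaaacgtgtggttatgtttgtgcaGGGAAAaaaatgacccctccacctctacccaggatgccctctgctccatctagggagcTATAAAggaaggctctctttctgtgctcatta
Ctrb1: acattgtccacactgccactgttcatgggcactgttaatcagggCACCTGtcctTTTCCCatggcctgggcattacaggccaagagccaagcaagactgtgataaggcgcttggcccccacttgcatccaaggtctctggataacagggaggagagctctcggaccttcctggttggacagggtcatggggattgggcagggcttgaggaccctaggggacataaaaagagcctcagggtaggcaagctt
Pnlip: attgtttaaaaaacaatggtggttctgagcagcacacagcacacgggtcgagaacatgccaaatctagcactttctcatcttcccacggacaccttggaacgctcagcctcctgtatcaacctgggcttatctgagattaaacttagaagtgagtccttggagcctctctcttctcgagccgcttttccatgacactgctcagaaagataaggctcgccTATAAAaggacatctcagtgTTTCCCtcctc
Cel: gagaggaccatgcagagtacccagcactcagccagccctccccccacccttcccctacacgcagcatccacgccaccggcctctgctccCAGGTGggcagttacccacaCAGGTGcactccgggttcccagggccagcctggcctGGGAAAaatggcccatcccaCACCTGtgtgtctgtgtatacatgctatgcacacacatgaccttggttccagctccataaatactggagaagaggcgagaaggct

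Promoters were found for 8 of the 10 genes. The E-box letters were in 4 of the 8 (Cel, Cpb1, Ctrb1 and Prss1), against 15.9% of all 33469 promoters of the same length. The RBPJ-type letters were also in 4 of the 8 (Cel, Ctrb1, Pnlip and Prss1), against 22.0% of all promoters. Cel, Ctrb1 and Prss1 held both, as did 3.23% of all promoters. The pair with a gap of 4 bases, CACCTGNNNNTTTCCC, was in Ctrb1 among the 8 and in 8 of all 33469 promoters (0.0239%), with its E-box starting 206 bases before the annotated start. TATAAA was in Amy2, Cpb1, Pnlip and Prss1, between 25 and 32 bases before the start, against 8.06% of all promoters with a match anywhere in the window. A match is only a match of letters, and nothing about the binding of a factor was measured.

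**Figure D1:**
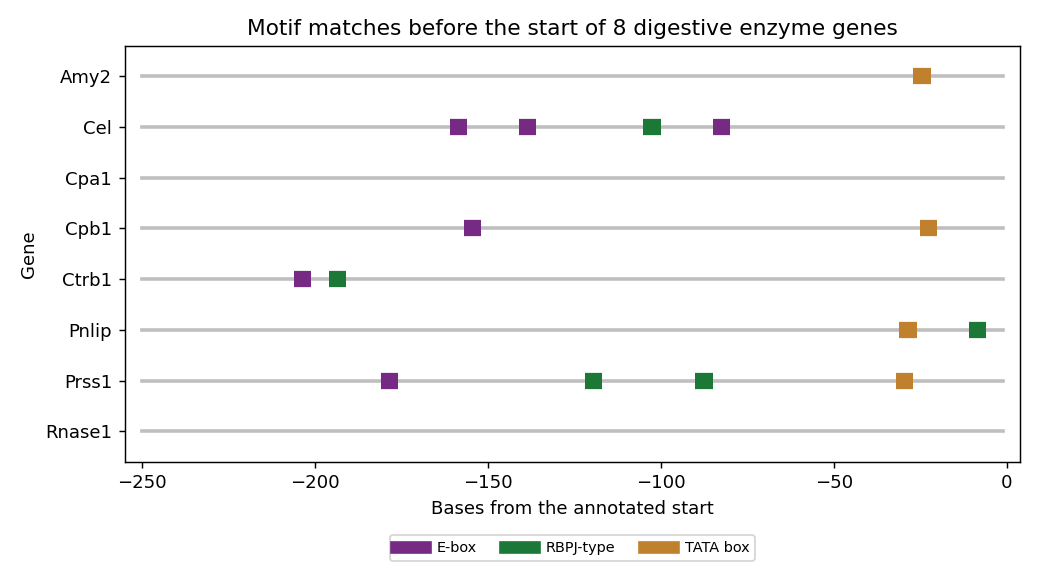
Matches of the E-box (purple), RBPJ-type (green) and TATA (brown) letters in the 250 bases before the annotated start of 8 digestive enzyme genes, by distance from that start in bases. Cel, Ctrb1 and Prss1 carry both an E-box and an RBPJ-type match, and in Ctrb1 they lie 4 bases apart.

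All 13 spots were well above the local background in both dyes on both arrays. So were 90.1% and 88.9% of the olfactory receptor probes in HIP and 88.5% and 77.4% in wild type, so passing this mark does not show that a gene was expressed. Wild type 2 had the weakest signal, with a median of 2.94 times background, against 5.10 in HIP 2, 5.13 in HIP 1 and 5.26 in wild type 1. In wild type 2, 73.6% of gene spots were well above background, against 83.5% to 85.0% in the other extracts. The part of this in the ratios of array 2 was not tested. Levels are given as normalized intensity, the spot's brightness on a linear scale after background correction, dye correction within the array and scaling of the arrays to each other. Brightness depends on the probe as well as on the RNA, so HIP and wild type are compared probe by probe. Sums over a list, given further below, weight each gene by the brightness of its probes. The brightest member of a list is a ranking of probes, not of RNA. How bright a probe was among all 41012 gene probes is given as its percentile. The 1112 probes for olfactory receptors, which the pancreas is not known for, had median percentiles from 48.2 to 52.1 in the 4 extracts, and 90% of them lay below percentiles between 86.8 and 87.0. Above that 90% mark stood 3 of the 13 enzyme probes in HIP 1 and 4 in HIP 2, against 3 in wild type 1 and 2 in wild type 2. Cela2a and the Rnase1 probe for the transcript CV795496 were above it in all 4 extracts, and most of the other enzyme probes were no brighter than many probes for olfactory receptors.

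No digestive enzyme probe passed the test of HIP against wild type (limma on log2 ratios of 2 arrays, Benjamini-Hochberg adjusted p under 0.05 over 33650 probes). No other probe did either: 0 of 33650 probes were called (0%), while 1099 had an unadjusted p under 0.05. An exact sign-flip test of 1 probe's 2 ratios cannot go below p = 0.5. The limma test can go lower because it assumes normal errors, and it also borrows the spread of all probes. Among the 12 enzyme probes with a ratio on both arrays, adjusted p ran from 0.942 to 1.00 and 1 probe, Prss3, had an unadjusted p under 0.05. The values below are therefore a description of 4 extracts.

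At least 2-fold higher in HIP on both arrays was 1 of the 12 probes, Prss3, and 2.57% of all probes tested were so. At least 2-fold lower on both was 0 of 12, against 2.44% of all probes. At least 2-fold but in opposite directions was 0 of 12, against 5.43%. By sign alone, HIP was above wild type on each array for 6 of the 12 probes (26.9% of all probes), below it on each array for 1 (22.9%), and on different sides for 5 (50.2%). Both HIP extracts lay above both wild-type extracts for 3 of the 12 probes (15.8% of all probes), both lay below for 1 (15.1%), and the genotypes overlapped for the other 8. The median log2 ratio of the 12 was 0.33 on array 1 and 0.19 on array 2, beside 0.03 and 0.02 over all probes tested.

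**Figure D2:**
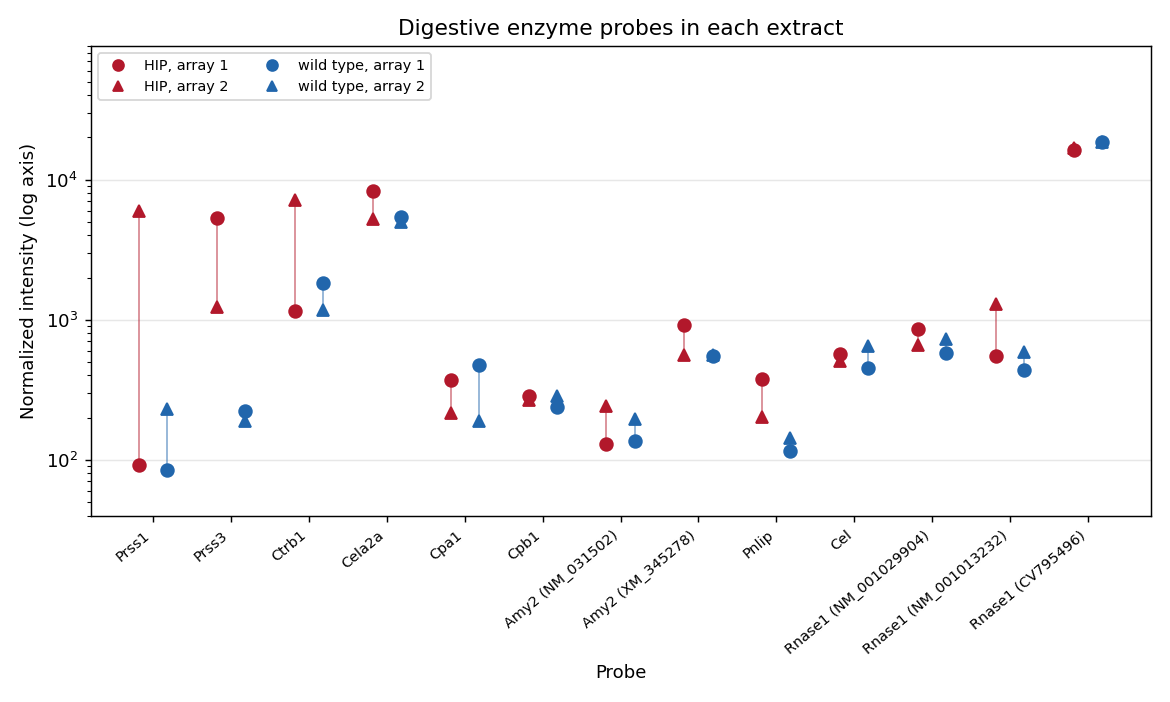
Normalized intensity (log axis) of each of the 13 digestive enzyme probes in the HIP extracts (red, left) and wild-type extracts (blue, right). Circles are array 1, triangles are array 2, and a line joins the 2 extracts of a genotype. Prss1 reached 5967 in HIP 2 and Prss3 reached 5319 in HIP 1, while most other probes lay close together in all 4 extracts.

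Prss3 encodes a trypsinogen, the precursor of trypsin. Its normalized intensity was 5319 in HIP 1 and 1234 in HIP 2, against 221 in wild type 1 and 189 in wild type 2. Both HIP extracts were above both wild-type extracts, and the HIP extracts themselves were 4.31-fold apart. The probe stood at percentiles 95.9 and 84.0 in HIP and 53.4 and 51.6 in wild type. HIP was 24.0-fold higher on array 1 and 6.51-fold higher on array 2, with log2 ratios of 4.59 and 2.70 (mean 3.64 ± 1.33, SD, n = 2 arrays; limma, unadjusted p = 0.0171, adjusted p = 0.942). Of the 33650 probes tested, 70 (0.208%) had log2 ratios of at least 2.70 on both arrays. The probe was designed against the predicted transcript XM_342668, which has no match in the RefSeq table, and trypsinogen genes are close copies of each other, so which copy it reads is uncertain.

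Prss1, another pancreatic trypsinogen, stood out in 1 extract. Its normalized intensity was 92.5 in HIP 1 and 5967 in HIP 2, against 84.4 in wild type 1 and 232 in wild type 2. HIP 2 stood apart from the other 3 extracts, and HIP 1 lay between the wild-type extracts. The HIP extracts were 64.5-fold apart and the wild-type extracts 2.75-fold. The log2 ratio was 0.13 on array 1 and 4.68 on array 2 (mean 2.41 ± 3.22, SD, n = 2 arrays; limma, adjusted p = 0.942), and 0.315% of all probes had a ratio as high on array 2. The promoter printed above carries an E-box, a pair of RBPJ-type matches and a TATA match.

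Ctrb1, chymotrypsinogen B, is cut to chymotrypsin by trypsin. Its normalized intensity was 1152 in HIP 1 and 7164 in HIP 2, against 1814 in wild type 1 and 1183 in wild type 2. HIP 2 was again the high extract, while HIP 1 was the lowest, close to wild type 2 and 1.58-fold below wild type 1 on its own array. The log2 ratio was -0.66 on array 1 and 2.60 on array 2 (mean 0.97 ± 2.30, SD, n = 2 arrays; limma, adjusted p = 0.953). On array 2 alone 4.26% of all probes had a ratio as high. Prss1 and Ctrb1 thus shared the extract in which they were high, and Prss3 was higher in the other HIP extract.

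Cela2a, a pancreatic elastase that cleaves after hydrophobic residues, was bright in every extract. Its normalized intensity was 8291 in HIP 1 and 5192 in HIP 2, against 5391 in wild type 1 and 4983 in wild type 2. HIP 1 was the highest and the other 3 lay within a narrow range, so the genotypes overlapped. The log2 ratios were 0.62 and 0.06 (mean 0.34 ± 0.40, SD, n = 2 arrays; limma, adjusted p = 0.963). The neutrophil elastase spot that shares the older letters stood at 127 in HIP 1 and 121 in HIP 2, against 119 in wild type 1 and 150 in wild type 2, with log2 ratios of 0.10 and -0.31.

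The carboxypeptidases remove residues from the end of a peptide chain, Cpa1 preferring aromatic and branched ones and Cpb1 basic ones. Cpb1 had a normalized intensity of 285 in HIP 1 and 269 in HIP 2, against 237 in wild type 1 and 283 in wild type 2. The 4 extracts were close and overlapped, and the log2 ratios were 0.27 and -0.07 (mean 0.10 ± 0.24, SD, n = 2 arrays; limma, adjusted p = 0.998). Cpa1 had 369 in HIP 1 and 216 in HIP 2, against 478 in wild type 1 and 191 in wild type 2, so both genotypes were higher on array 1 than on array 2. Its spot on array 1 was marked as an outlier by the scanner software and left out of the fit, and the log2 ratio was 0.18 on array 2, or -0.37 on array 1 where that spot was kept.

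Amy2 encodes pancreatic alpha-amylase, which cuts starch. The probe for NM_031502, listed in RefSeq as Amy2a3, had 129 in HIP 1 and 243 in HIP 2, against 136 in wild type 1 and 195 in wild type 2. The extracts of array 2 were brighter than those of array 1 in both genotypes, and the log2 ratios were -0.08 and 0.32 (mean 0.12 ± 0.28, SD, n = 2 arrays; limma, adjusted p = 0.998). The other Amy2 probe, for XM_345278, is described on the array as similar to salivary amylase, and had 912 in HIP 1 and 560 in HIP 2, against 555 in wild type 1 and 558 in wild type 2. Only HIP 1 stood apart, since HIP 2 exceeded both wild-type extracts by less than 1 percent of its level. Its log2 ratios were 0.72 and 0.00 (mean 0.36 ± 0.50, SD, n = 2 arrays; limma, adjusted p = 0.961).

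Pnlip, pancreatic lipase, splits dietary triglycerides with the help of colipase. Its normalized intensity was 379 in HIP 1 and 202 in HIP 2, against 115 in wild type 1 and 142 in wild type 2. Both HIP extracts were above both wild-type extracts, at percentiles 66.1 and 52.5 in HIP and 35.4 and 42.1 in wild type, a range of brightness that olfactory receptor probes also had. The log2 ratios were 1.72 and 0.51 (mean 1.12 ± 0.86, SD, n = 2 arrays; limma, adjusted p = 0.942). With the scanner's own processed ratios Pnlip was also at least 2-fold higher on both arrays, at a mean of 1.98.

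Cel, the bile-salt-activated lipase, also cleaves cholesterol esters. Its normalized intensity was 573 in HIP 1 and 503 in HIP 2, against 453 in wild type 1 and 650 in wild type 2. The highest and the lowest values were both wild type, and the HIP extracts lay between them. The log2 ratios were 0.34 and -0.37 (mean -0.01 ± 0.50, SD, n = 2 arrays; limma, adjusted p = 1.00), and the mean became 0.31 relative to the median of all probes with median centring in place of loess.

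Rnase1, the secreted pancreatic ribonuclease, had 3 probes under its name. The probe for NM_001029904 had 858 in HIP 1 and 664 in HIP 2, against 576 in wild type 1 and 731 in wild type 2, with log2 ratios of 0.57 and -0.14. The probe for NM_001013232, which RefSeq now assigns to the related gene Rnase1l1, had 547 in HIP 1 and 1288 in HIP 2, against 440 in wild type 1 and 590 in wild type 2, with log2 ratios of 0.31 and 1.13 (mean 0.72 ± 0.57, SD, n = 2 arrays; limma, adjusted p = 0.942). HIP 2 was the high extract for this probe, and HIP 1 lay between the wild-type extracts. The probe for the expressed sequence tag CV795496 was among the brightest of the array, with 16237 in HIP 1 and 16786 in HIP 2, against 18538 in wild type 1 and 18542 in wild type 2. Both HIP extracts were slightly below both wild-type extracts, with log2 ratios of -0.19 and -0.14 (mean -0.17 ± 0.03, SD, n = 2 arrays; limma, adjusted p = 0.993), but the mean was 0.50 relative to the median of all probes with median centring. The 3 probes named Rnase1 on the array therefore gave different ratios, and 1 of them is assigned to the related gene Rnase1l1.

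**Figure D3:**
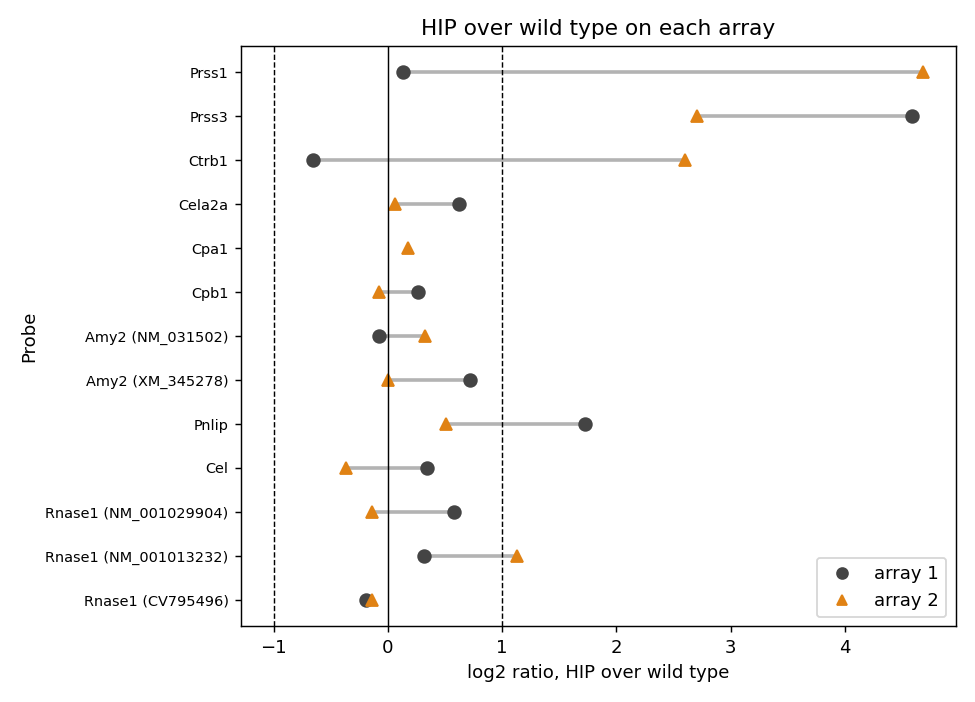
Log2 ratio of HIP over wild type for each digestive enzyme probe on array 1 (circles) and array 2 (triangles). Dashed lines mark 2-fold either way and grey bars join the arrays. Prss3 lies beyond 2-fold on both arrays, Prss1 and Ctrb1 on array 2 alone, and 7 of the 12 probes with both ratios stay within 2-fold on both.

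Within 2-fold on both arrays were 7 of the 12 probes, whose log2 ratios ran from -0.37 to 0.72, and 52.0% of all probes tested were also within 2-fold on both. At least 2-fold higher in HIP were 2 of the 12 on array 1 (Prss3 and Pnlip) and 4 on array 2 (Prss3, Prss1, Ctrb1 and the NM_001013232 probe), against 13.8% and 15.1% of all probes. At least 2-fold lower were 0 of the 12 on either array, against 16.6% and 12.9% of all probes.

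**Figure D4:**
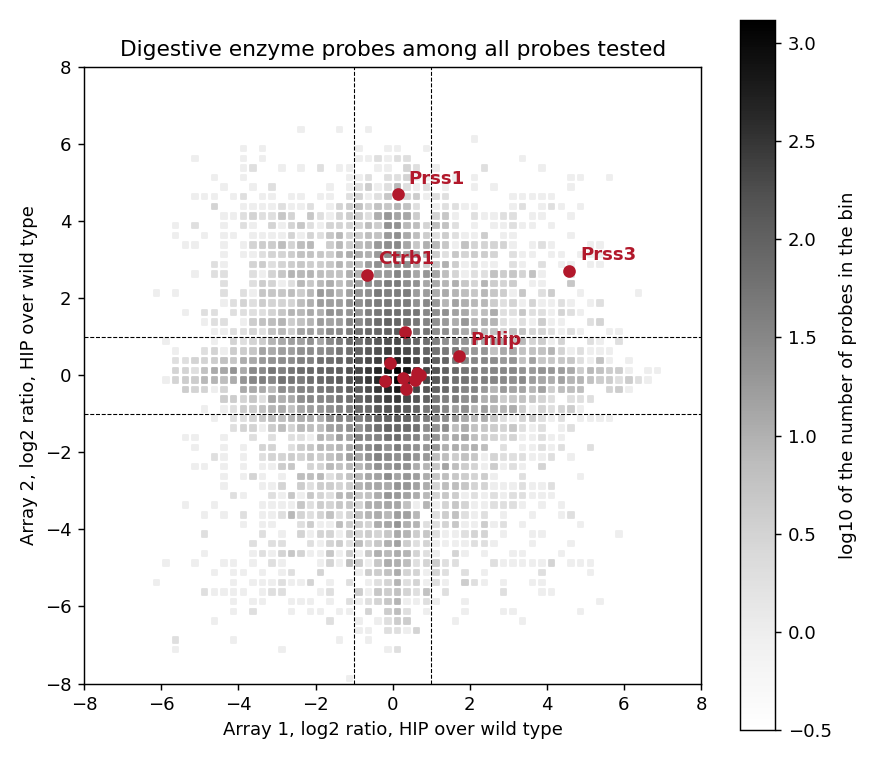
Log2 ratio of HIP over wild type on array 1 (horizontal) and array 2 (vertical) for all 33650 probes tested, as grey bins shaded by the log10 of the number of probes, and for the 12 digestive enzyme probes (red points). Dashed lines mark 2-fold. Prss3 is in the upper right, Prss1 and Ctrb1 lie high on array 2 alone, and Pnlip is beyond 2-fold on array 1. Of the others, all but the NM_001013232 probe named Rnase1 on the array, at 1.13 on array 2, lie within the dashed lines.

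How far the extracts of a genotype differ sets how these values can be read. Over all probes kept, log2 levels correlated at 0.718 between the HIP extracts and 0.739 between the wild-type extracts, against 0.762 and 0.745 between the genotypes that shared array 1 and array 2. The ratios of the arrays correlated at -0.0084 across 33650 probes. These correlations are across probes, which are not independent, and extracts on 1 array share its hybridisation. Repeated spots of 1 probe had a median SD of 0.074 (log2) on array 1 and 0.082 on array 2 over 216 probes. That SD is the error of a spot within an array and holds none of the spread between extracts. The cDNA had been amplified by PCR before labelling, per the labels, and the part of that step in the spread was not tested.

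Further probes for the trypsin family, carboxypeptidase B and amylase were on the array under other names, and 10 of them were looked at after values of these data had been seen. RGD1560283, described on the array as similar to trypsinogen 8, had 5784 in HIP 1 and 1056 in HIP 2, against 311 in wild type 1 and 235 in wild type 2. The order of the extracts was that of Prss3, and its log2 ratios were 4.22 and 2.17 (mean 3.19 ± 1.45, SD, n = 2 arrays; limma, adjusted p = 0.942). Prss3b, a cationic trypsinogen, had 2610 in HIP 1 and 226 in HIP 2, against 291 in wild type 1 and 283 in wild type 2, so HIP 1 alone was high. Prss2, another trypsinogen, had 4166 in HIP 1 and 2833 in HIP 2, against 9988 in wild type 1 and 4351 in wild type 2, both HIP extracts being below both wild-type extracts, with log2 ratios of -1.26 and -0.62. Its mean was -0.94 with loess and -0.34 relative to the median of all probes with median centring.

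Try10, described as trypsin 10, had log2 ratios of -0.79 and 0.39, and the preprotrypsinogen IV probe (LOC286960) had -0.44 and 0.31. The trypsin II probe for XM_342671 was dim in all extracts, at 74.5 and 80.4 in HIP and 74.4 and 74.7 in wild type. The trypsin V-A probe (LOC312273) did not pass the filter on dim probes. Probes of 1 family therefore included ones higher in HIP, lower in HIP and different between the arrays.

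The amylase probe for XM_342323, described as similar to amylase 1, had 3170 in HIP 1 and 2223 in HIP 2, against 453 in wild type 1 and 589 in wild type 2. Both HIP extracts were above both wild-type extracts, with log2 ratios of 2.81 and 1.92 (mean 2.36 ± 0.63, SD, n = 2 arrays; limma, adjusted p = 0.942), whereas both Amy2 probes stayed within 2-fold. So did the probe named Amy1, singled out after its values were seen, with log2 ratios of 0.30 and 0.32. Amy1 had 148 in HIP 1 and 191 in HIP 2, against 120 in wild type 1 and 153 in wild type 2. For carboxypeptidase B, the probe for exons 6 to 8 of the gene (M23953) was very bright and steady, with 18575 in HIP 1 and 20225 in HIP 2, against 17239 in wild type 1 and 16801 in wild type 2. The probe for intron 1 of that gene (M23948) had 65.2 in HIP 1 and 1517 in HIP 2, against 155 in wild type 1 and 135 in wild type 2. HIP 2 alone was high for the intron probe, as it was for Prss1 and Ctrb1, while the exon probe and the Cpb1 probe did not follow it.

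**Figure D5:**
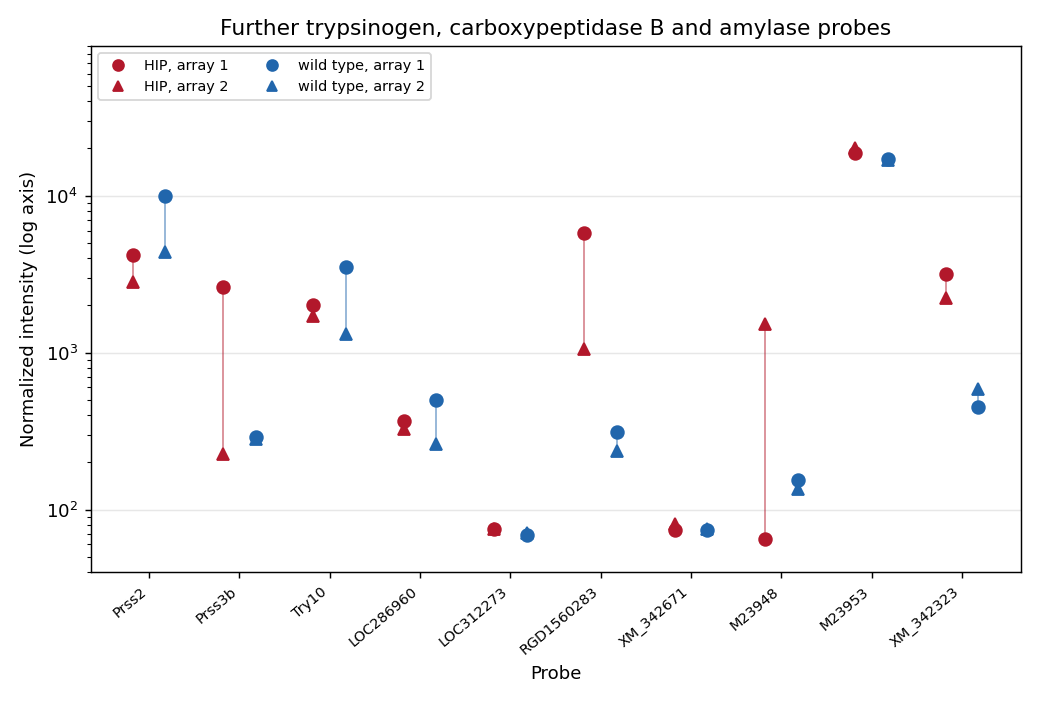
Normalized intensity (log axis) of 10 further trypsinogen, carboxypeptidase B and amylase probes in the HIP extracts (red, left) and wild-type extracts (blue, right). Circles are array 1 and triangles are array 2. RGD1560283 and XM_342323 were higher in both HIP extracts, Prss3b and M23948 in 1 HIP extract each, and Prss2 was lower in both.

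Other genes of the acinar program were taken from 4 lists of proteases, lipases, granule proteins and inhibitors, and transcription factors and receptors. Of their 28 tested probes, 0 were called by the test, 0 were at least 2-fold higher in HIP on both arrays (2.57% of all probes), 0 were at least 2-fold lower on both (2.44%) and 3 were 2-fold in opposite directions (5.43%). By sign, HIP was above wild type on each array for 9 probes (26.9% of all probes) and below it on each for 7 (22.9%). The other 12 probes changed sides (50.2%). The median log2 ratio was 0.21 on array 1 and 0.01 on array 2. Prss2, given above, was the brightest of the other proteases.

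Pla2g1b, the pancreatic phospholipase A2, was the brightest of the other lipases and amylase. It had 2489 in HIP 1 and 2609 in HIP 2, against 3823 in wild type 1 and 4395 in wild type 2. Both HIP extracts were below both wild-type extracts, with log2 ratios of -0.62 and -0.75 (mean -0.69 ± 0.09, SD, n = 2 arrays; limma, adjusted p = 0.942), and the mean was -0.15 relative to the median of all probes with median centring. Spink1, which encodes a trypsin inhibitor, had its brightest probe at 1383 in HIP 1 and 2461 in HIP 2, against 370 in wild type 1 and 8326 in wild type 2. The wild-type extracts were the extremes, and the log2 ratios were 1.90 and -1.76.

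Sctr, the receptor for secretin, was the brightest of the transcription and receptor list, with 1003 in HIP 1 and 6620 in HIP 2, against 10515 in wild type 1 and 5158 in wild type 2. HIP 1 was low and the other 3 extracts were higher, with log2 ratios of -3.39 and 0.36. The genes of PTF1 were looked at because of the promoter matches, after their values had been seen. Ptf1a, its bHLH subunit, was dim, with 102 in HIP 1 and 81.7 in HIP 2, against 76.7 in wild type 1 and 76.3 in wild type 2. Rbpjl, its acinar DNA-binding partner, had 1205 in HIP 1 and 374 in HIP 2, against 610 in wild type 1 and 359 in wild type 2, with log2 ratios of 0.98 and 0.06. Of the same list, also singled out after its values were seen, Nr5a2, an acinar nuclear receptor, had 494 in HIP 1 and 964 in HIP 2, against 367 in wild type 1 and 319 in wild type 2. Gata4, a GATA transcription factor, had 233 in HIP 1 and 433 in HIP 2, against 373 in wild type 1 and 213 in wild type 2. The highest extract was HIP 1 for Ptf1a and Rbpjl and HIP 2 for Nr5a2 and Gata4.

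Markers of other cells of the pancreas were read beside the enzymes, and their part in the enzyme ratios was not tested. Of 6 islet hormone probes, 1 was at least 2-fold lower in HIP on both arrays (Ins1, log2 ratios -1.18 and -1.02), as were 2.44% of all probes, and the brightest, Ins2, had 12071 in HIP 1 and 10889 in HIP 2, against 24810 in wild type 1 and 19585 in wild type 2. Both insulin probes were lower in both HIP extracts, and their means of -1.10 and -0.94 shrank to -0.50 and -0.28 with median centring, counted from the median of all probes. By sign, 3 of the 6 were above wild type on each array, as were 26.9% of all probes. They were Iapp (0.51 and 0.10), Sst (0.13 and 0.09) and Ppy (0.93 and 0.19). Iapp and Sst were dim, below the median percentile of the olfactory receptor probes in every extract. Iapp stood at 114 and 101 in HIP and 80.1 and 93.9 in wild type, and Sst at 81.0 and 84.4 in HIP and 74.1 and 79.5 in wild type. The means of Iapp and Sst turned to -0.14 and -0.50 with median centring. The 2 insulin probes were below wild type on each array (22.9% of all probes), and Gcg was at 2.84 and -1.35. The islet list's summed intensity, most of it from the insulin probes, was 20654 and 16355 in HIP and 36019 and 30322 in wild type. Of 9 tested ductal probes, 2 were at least 2-fold lower on both arrays (2.44% of all probes), Krt8 (-2.64 and -3.69) and 1 Krt18 probe (-2.18 and -1.45), and the brighter Krt18 probe was at -2.86 and 1.30. By sign, 5 of the 9 were below wild type on each array (22.9% of all probes). Above it on each were 2 (26.9%), 1 Sox9 probe (0.02 and 0.74) and 1 Cftr probe (0.18 and 0.48). The other 2 changed sides (50.2%), Krt19 (-0.88 and 0.13) and the brighter Krt18 probe. Which cells the keratin RNA came from was not tested. The ductal list's summed intensity was 4909 and 4977 in HIP and 17184 and 8238 in wild type, with 9968 of wild type 1 from the brighter Krt18 probe and 4102 of wild type 2 from Krt8.

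Tested probes numbered 6 in the leukocyte list, 7 in the endothelial and stromal list and 3 in the pancreatitis response list. Of these, 0 were at least 2-fold in 1 direction on both arrays, against 2.57% of all probes higher and 2.44% lower. The leukocyte list summed to 1683 and 1071 in HIP and 1254 and 2899 in wild type, and its probe of the highest mean, for Ptprc, stood at 214 and 140 in HIP and 154 and 1938 in wild type, a rank that rests on wild type 2. One other Ptprc probe stood at 731 and 286 in HIP and 218 and 260 in wild type, and the other at 56.6 and 80.4 in HIP and 307 and 66.3 in wild type. The endothelial and stromal list summed to 5207 and 7541 in HIP and 4948 and 7266 in wild type, with Col1a1 the brightest at 2430 and 3823 in HIP and 1884 and 4261 in wild type. Reg3g, the brightest of the genes known to rise in pancreatitis, had 1244 in HIP 1 and 1512 in HIP 2, against 1135 in wild type 1 and 1465 in wild type 2, so the genotypes overlapped. Reg3a was above wild type on each array (0.41 and 0.62), and Reg1a changed sides (0.06 and -0.34). Reg3b did not pass the filter on dim probes, with 72.7 and 159 in HIP and 68.2 and 1445 in wild type. The 13 digestive enzyme probes summed to 35144 and 40288 in HIP and 29040 and 28469 in wild type. The CV795496 probe had the largest share of each sum but was lower in HIP. The higher HIP sums came mainly from Prss3 and Cela2a on array 1 and from Prss1 and Ctrb1 on array 2. Other acinar proteases summed to 11484 and 13607 in HIP and 17924 and 22670 in wild type. Other lipases and amylase summed to 3492 and 4971 in HIP and 4634 and 6790 in wild type. The granule and inhibitor list summed to 3778 and 4035 in HIP and 2173 and 10294 in wild type. The transcription and receptor list summed to 5251 and 9676 in HIP and 13097 and 9987 in wild type.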

How the data were processed

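Amplified cDNA of 2 HIP and 2 wild-type extracts was hybridised to 2 two-colour Agilent rat arrays (design 014879). The arrays share 1 slide and 1 scan per the file headers, so no batch could be tested. The deposited spot and background intensity values are scanner output of Agilent Feature Extraction 9.5.1.1, without normalization, per the file headers. The deposited log10 ratio, Cy5 over Cy3, uses processed signals that the software background-subtracted and dye-normalized, per the file headers. No source used here gives a genome build for the probes.

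From the deposited intensities, log2 ratios were computed in R 4.3.3 with limma 3.58.1: normexp background correction (offset 50), loess within each array with control spots at weight 0, then removal of control spots and outlier-marked spots and averaging of repeated spots. Levels in each extract were scaled by Aquantile. Probes that were, on each array, well above background in 1 dye or both were tested against 0 with lmFit and eBayes (1 residual degree of freedom), adjusted by Benjamini-Hochberg over 33650 probes. The test was also run on simulated data, after the main fit, and that run is not used as support here. The precision is limited by the number of arrays. The 10 genes and the lists were chosen with earlier results of these data known. Named genes were every probe of the 10 genes and, of other lists, the brightest member and members at least 2-fold in 1 direction on both arrays, and exceptions are marked. Further members of the islet, ductal, leukocyte and pancreatitis lists were named after their values were seen. Alternatives changed the normalization, background correction, filter, prior, probe choice, outlier spots, the table used and the arrays. Gene names were updated by accession through RefSeq (GRCr8).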

Additional observations from a re-analysis of the deposited data

How the results depend on the processing

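With 2 arrays and no dye swap, a ratio cannot be separated from the dye or from the single extracts. In all 11 alternatives for the whole array 0 probes were called, with 954 to 5588 probes at an unadjusted p under 0.05. Prss3 was at least 2-fold higher in HIP on both arrays in every alternative that kept both arrays, and its mean log2 ratio ran from 3.64 to 4.40. That count was 1 of 12 digestive enzyme probes, but 2 with the scanner's processed log ratio, where Pnlip joined Prss3 with 1.98. The authors' deposited table gave the same 2. For these probes it holds the scanner's ratios, so it is not a separate check. The counts on single arrays were 2 to 4. Of 153 values of the 12 probes under alternatives, 144 kept their sign and 9 turned. Alternatives that give the same values are counted separately in these numbers. Median centring and no normalization shifted the median of all probes by 0.27 and 1.06. These settings differ only by a constant on each array, so relative to that median they give the same values by construction. Cel was then 0.31 and the CV795496 probe of Rnase1 was 0.50, where the main means were below 0. The other digestive enzyme means rose too, except those of Pnlip and the NM_031502 probe of Amy2, which fell slightly. Cela2a went from 0.34 to 0.94, Ctrb1 from 0.97 to 1.44 and the XM_345278 probe of Amy2 from 0.36 to 0.73. The causes were not tested. Without one array or the other the log2 ratio of Ctrb1 ran from -0.66 to 2.60, that of Cpb1 from -0.075 to 0.27, that of the NM_031502 probe of Amy2 from -0.076 to 0.32, that of Cel from -0.37 to 0.34 and that of the NM_001029904 probe of Rnase1 from -0.14 to 0.57. Prss1 ran from 0.13 to 4.68. The ratios of each array already pair 1 HIP with 1 wild-type extract, so the test of the ratios is the paired one. The scale of the deposited table is log10 and its direction Cy5 over Cy3.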
